A study of Mus musculus with 6 samples.

Results

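Transcript levels of 37 genes for lysosomal enzymes and membrane proteins were followed in mouse acute myeloid leukaemia. The genes were taken by symbol from a list of 39, using array rows that carry exactly 1 gene symbol and keeping 1 such row per gene, that of highest mean. They are 37 of the 30142 genes measured in this way. Ctsd and Glb1 are on rows shared with another gene and were not analysed as members. RNA came from 3 Dnmt3b-KO and 3 littermate control samples, each measured on 1 Affymetrix array. MLL-AF9, a fusion oncogene, drove the leukaemia in both groups, and cells were sorted by flow cytometry from the marrow of recipient mice once disease had reached its end stage. The sort markers, the deleted part of Dnmt3b, the means of its deletion and the age of the mice are not given in the sources used here. Whether the 3 arrays of a group come from separate mice is not in the labels either, so each p-value reflects sample-to-sample spread that may be technical.

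Lysosomes are acidic compartments in which proteins, sugar chains and lipids are broken down. A vacuolar proton pump acidifies the lumen, proteases such as the cathepsins and sugar- and lipid-cleaving enzymes work there, and membrane proteins protect the wall and carry products out. The transcription factors TFEB and TFE3 bind an E-box variant before many lysosomal genes and raise their transcription. Cells that engulf material, macrophages above all, carry many lysosomes, and myeloid granules hold related enzymes.

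Values are on a log2 scale as deposited, and differences are given in these log2 units. The scale reaches 19.59, above the 16 that is the log2 of a 16-bit scanner's range, so differences are not converted to folds. Dnmt3b, the targeted DNA methyltransferase gene, measured 6.47, 6.63 and 5.96 in Dnmt3b-KO replicates 1, 2 and 3, against 6.76, 6.83 and 6.78 in controls. Its values did not overlap between the groups, and with a difference of -0.44 ± 0.17 (SE) it was not called (limma, adjusted p = 0.781). Dnmt3b-KO replicate 3 stood apart: its correlations with the other 5 arrays across genes were 0.9805 to 0.9816, and those among the other 5 were 0.9977 to 0.9989. It also carried Y-linked transcripts near or within the background range elsewhere, with Eif2s3y at 8.26, against 4.43 and 4.41 in Dnmt3b-KO replicates 1 and 2 and 4.54, 4.52 and 4.52 in controls. The X-linked transcript Xist was also strong on this array, at 15.44. It measured 16.69 and 16.68 in Dnmt3b-KO replicates 1 and 2 and 16.66, 16.71 and 16.79 in controls. Counts below are therefore given with and without this array. The leukaemia markers Mpo, Kit, Itgam and Ptprc lay between 9.71 and 17.49 on every array, far above 23 background control rows, which ran from 2.30 to 5.62. Atp6v0d2, Ctsk and Tfeb lay within that range on all 6 arrays and Ctsf, Lgmn and Tfe3 on all but Dnmt3b-KO replicate 3, so the size of their differences is not exact. In bulk RNA, fewer cells of a type and less RNA per cell cannot be told apart.

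Promoters were read for the E-box CACGTG, the core of the motif that TFEB and TFE3 bind. RefSeq windows of build GRCm38.p6, from 250 bases before to 50 after a start, were found for 31 of the 37 genes. The E-box, which reads the same on both strands, was in a window of 10 of these 31 genes (32.3%), against 8.09% of 27025 genes with a window. The longer form TCACGTGA, which contains the E-box, was in 5 of 31 (16.1%), against 1.12% of genes, and TCACGTG on either strand was in 8 of 31 (25.8%), against 4.29%. CpG pairs, the sites of DNA methylation, numbered 12 in the median member window and 7 in the median window of all genes. The E-box itself contains a CpG pair, and its share among windows with like numbers of CpG pairs was not taken. The 250 bases before the start are printed for Lgmn, Ctsl and Ctss, which were far higher on Dnmt3b-KO replicate 3, for Man2b1, which was lower there and nearest to the threshold without it, and for the E-box-rich Lamp1 and Mcoln1. Capitals mark each E-box.
Lgmn, chr12:102439093-102439342, minus strand: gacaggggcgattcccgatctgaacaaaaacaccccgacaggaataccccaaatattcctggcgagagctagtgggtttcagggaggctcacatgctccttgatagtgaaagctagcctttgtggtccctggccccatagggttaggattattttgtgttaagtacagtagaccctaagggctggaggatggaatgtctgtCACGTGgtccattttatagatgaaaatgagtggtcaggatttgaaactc
Ctsl, chr13:64370521-64370770, minus strand: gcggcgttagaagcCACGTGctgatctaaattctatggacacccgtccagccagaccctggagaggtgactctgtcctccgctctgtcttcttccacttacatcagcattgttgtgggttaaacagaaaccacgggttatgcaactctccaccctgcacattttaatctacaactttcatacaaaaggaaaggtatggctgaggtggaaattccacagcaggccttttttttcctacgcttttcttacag
Ctss, chr3:95526536-95526785, plus strand: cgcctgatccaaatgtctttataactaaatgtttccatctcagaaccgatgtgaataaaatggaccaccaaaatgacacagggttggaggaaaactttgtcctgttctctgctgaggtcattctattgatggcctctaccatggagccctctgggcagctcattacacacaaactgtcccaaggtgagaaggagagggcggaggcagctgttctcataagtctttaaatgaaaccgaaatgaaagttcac
Man2b1, chr8:85083019-85083268, plus strand: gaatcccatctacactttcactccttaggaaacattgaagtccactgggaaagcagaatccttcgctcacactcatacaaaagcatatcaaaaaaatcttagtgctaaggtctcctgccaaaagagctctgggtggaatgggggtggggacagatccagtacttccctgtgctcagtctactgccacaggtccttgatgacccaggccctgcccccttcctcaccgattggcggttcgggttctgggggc
Lamp1, chr8:13158911-13159160, plus strand: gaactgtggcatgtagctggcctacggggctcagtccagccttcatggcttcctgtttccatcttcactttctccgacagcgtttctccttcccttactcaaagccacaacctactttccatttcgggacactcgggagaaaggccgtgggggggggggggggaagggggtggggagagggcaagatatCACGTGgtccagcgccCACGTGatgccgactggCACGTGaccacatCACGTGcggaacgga
Mcoln1, chr8:3500269-3500518, plus strand: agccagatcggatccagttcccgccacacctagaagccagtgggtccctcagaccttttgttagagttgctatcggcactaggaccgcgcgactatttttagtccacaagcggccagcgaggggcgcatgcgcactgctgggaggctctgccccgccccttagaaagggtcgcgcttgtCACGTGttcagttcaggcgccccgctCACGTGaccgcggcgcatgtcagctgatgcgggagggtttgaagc
The Lgmn stretch is from 1 of the gene's 2 windows, printed because it holds the E-box. The other window holds no E-box and has 18 CpG pairs, against 6 in the full window of the printed stretch. Lamp1 has 4 E-boxes, the first base of each at -61, -45, -28 and -15 from the start. Mcoln1 has 2, at -71 and -45, in a stretch with 21 CpG pairs, against 4 in those of Ctss and Man2b1. A match is a description of these letters and does not show binding.

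Across all 6 arrays, no lysosomal gene passed the threshold of an adjusted p under 0.05 (limma, Benjamini-Hochberg over 30142 genes). The same fit called 0% of all genes higher and 0% lower. At an unadjusted p under 0.05, 2 of the 37 were higher, Ppt1 and Npc2, and 0 were lower, against 2.79% and 3.58% of all genes. All 3 Dnmt3b-KO values lay above all controls for 13 of the 37, against 6.68% of all genes, and below them for 2, Ctsk and Neu1, against 8.21%. The median difference over the 37 was 0.31, against 0.00 over all genes. The range ran from -0.48 for Neu1 to 2.65 for Lgmn.

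Npc2, a soluble protein that hands cholesterol to Npc1 for export, measured 8.78, 8.76 and 8.84 in Dnmt3b-KO, against 8.57, 8.59 and 8.63 in controls. All 3 Dnmt3b-KO values were higher, by 0.19 ± 0.05 (SE; limma, adjusted p = 0.663). Ppt1, which removes palmitate from proteins, measured 11.45, 11.35 and 11.62 in Dnmt3b-KO, against 11.25, 11.19 and 11.19 in controls. The groups did not overlap and differed by 0.26 ± 0.08 (limma, adjusted p = 0.705). For these genes replicate 3 lay close to replicates 1 and 2. For most others it did not, and the standard errors were wide: Lgmn differed by 2.65 ± 2.29, Ctsl by 2.39 ± 1.86 and Ctss by 1.99 ± 1.59 (limma, adjusted p = 0.833 for each). Scarb2 differed by 0.80 ± 0.39, Lipa by 0.75 ± 0.33, Grn by 0.75 ± 0.35 and Atp6v1a by 0.49 ± 0.21 (limma, adjusted p = 0.823, 0.809, 0.82 and 0.81), without overlap of the groups. Ctsc differed by 0.60 ± 0.99, Ctsh by -0.11 ± 0.33 and Man2b1 by 0.03 ± 0.38, with overlap, and Neu1 by -0.48 ± 0.27, below all controls (limma, adjusted p = 0.897, 0.952, 0.991 and 0.83). The other 24 genes ran from -0.23 for Smpd1 to 1.56 for Cd68.

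**Figure D1:**
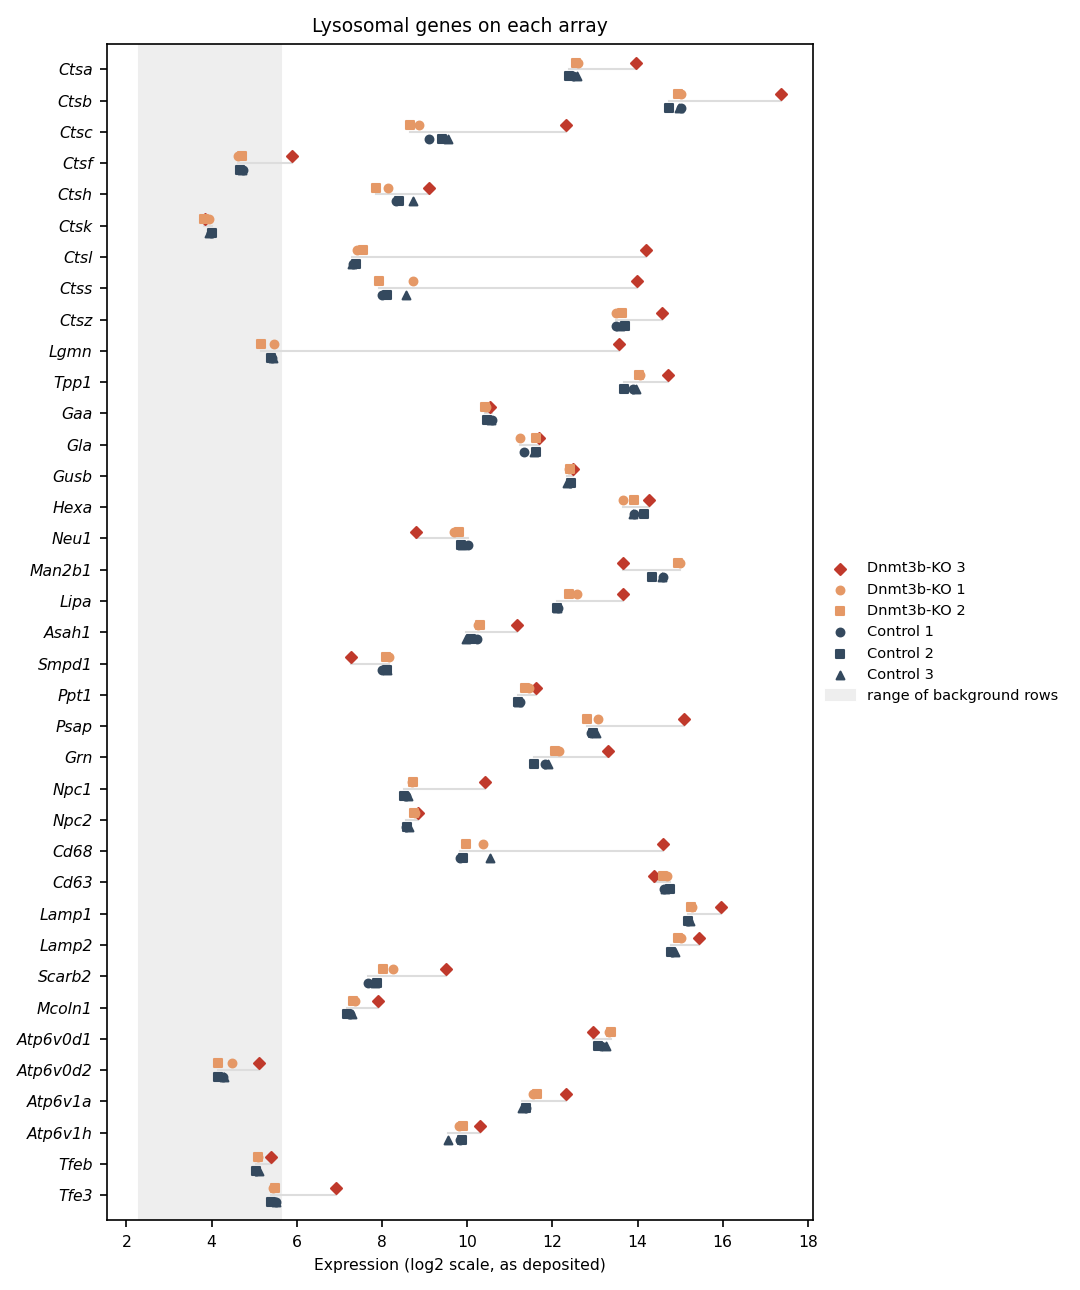
Level of each of the 37 lysosomal genes (log2 scale, as deposited) on each of the 6 arrays, with Dnmt3b-KO in red and orange above control in dark blue; the grey band spans the background control rows, 2.30 to 5.62. Dnmt3b-KO replicate 3 (red diamonds) lies above the other 5 arrays for 30 genes and below them for 5, while the orange and dark symbols lie close together.

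Without Dnmt3b-KO replicate 3, differences between the remaining 2 Dnmt3b-KO and 3 control arrays were small. They ran from -0.59 for Ctsc to 0.48 for Man2b1, with a median of 0.08 against -0.01 over all genes, and 24 of the 37 were above 0. None of the 37 passed the threshold (limma), while 0.939% of all genes were called higher and 0.75% lower. At an unadjusted p under 0.05, 10 of the 37 were higher and 2 lower, against 7.74% and 7.73% of all genes. Both Dnmt3b-KO values lay above all controls for 15 of the 37, against 15.1% of all genes, and below them for 5, against 17.4%. Of the 37, 35 are among the 15071 genes above the median expression level. In those 15071, both values lay above all controls for 3175 and below them for 3034. At an unadjusted p under 0.05 (limma), 1882 of them were higher and 1773 lower.

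Among the proteases, the cathepsins Ctsc and Ctsh were on the lower side. Ctsc, the dipeptidyl peptidase that activates the serine proteases of myeloid granules, measured 8.87 and 8.66 in Dnmt3b-KO replicates 1 and 2, against 9.10, 9.41 and 9.55 in controls. The arrays did not overlap and the difference was -0.59 ± 0.14 (SE; limma, adjusted p = 0.118). Ctsh, an aminopeptidase, measured 8.15 and 7.87, against 8.33, 8.39 and 8.72 in controls, a difference of -0.47 ± 0.14 without overlap (limma, adjusted p = 0.186). Tpp1, a tripeptidyl peptidase, and Ctsl, an endopeptidase, were on the higher side. They differed by 0.20 ± 0.09 and 0.15 ± 0.07 (limma, adjusted p = 0.374 and 0.362). Ctss, which trims the invariant chain of antigen-presenting cells, measured 8.73 and 7.92 in Dnmt3b-KO replicates 1 and 2, further apart than the difference of 0.10 ± 0.27 between the groups. The other proteases, Ctsa, Ctsb, Ctsf, Ctsk, Ctsz and Lgmn, differed by -0.11 to 0.10. The median over the 11 proteases was -0.03.

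Of the 6 glycosidases, which cut sugars from glycoproteins, glycolipids and glycogen, Man2b1 was higher and the median was -0.10. Man2b1, the acid alpha-mannosidase, measured 15.00 and 14.96 in Dnmt3b-KO replicates 1 and 2, against 14.60, 14.35 and 14.57 in controls. Its difference of 0.48 ± 0.09 (SE) was without overlap, and its adjusted p of 0.0681 (limma) was the smallest of the 37. The call depends on the setting: the adjusted p was 0.0366 after repeated quantile normalization and 0.0283 among genes above the median level. Neu1, a sialidase, measured 9.68 and 9.81 in Dnmt3b-KO, against 10.02, 9.85 and 9.87 in controls, lower by a narrow gap (-0.17 ± 0.08; limma, adjusted p = 0.403). Hexa, a subunit of beta-hexosaminidase, had a difference of -0.20 ± 0.11 with overlapping arrays. Gaa, the glycogen-cleaving alpha-glucosidase, Gla, the alpha-galactosidase, and Gusb, the beta-glucuronidase, differed by -0.10 to 0.00.

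Genes for the handling of lipids had a median difference of 0.17, and 7 of 8 were above 0. Lipa, the acid lipase that frees cholesterol and fatty acids, measured 12.57 and 12.39 in Dnmt3b-KO replicates 1 and 2, against 12.13, 12.12 and 12.11 in controls. It was higher by 0.36 ± 0.07 (SE; limma, adjusted p = 0.0725), and the adjusted p was 0.0364 when genes below the median level were left out. Grn, whose product progranulin is a lysosomal protein needed for lipid breakdown, measured 12.15 and 12.07, against 11.83, 11.58 and 11.89 in controls. Its difference was 0.35 ± 0.10 (limma, adjusted p = 0.177) with no overlap. Ppt1, Asah1 (acid ceramidase), Npc2 and Npc1 were higher by 0.15 to 0.19, and Smpd1 (acid sphingomyelinase) and Psap, the precursor of the saposins that present lipids to enzymes, differed by 0.06 and -0.02.

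In the membrane, Scarb2, the receptor that brings glucocerebrosidase to lysosomes, measured 8.25 and 8.03 in Dnmt3b-KO replicates 1 and 2, against 7.66, 7.89 and 7.83 in controls. All Dnmt3b-KO values were higher, by 0.34 ± 0.10 (SE; limma, adjusted p = 0.161). Lamp2 and Lamp1, the main glycoproteins of the lysosomal wall, differed by 0.16 ± 0.06 and 0.07 ± 0.05, and the calcium channel gene Mcoln1 by 0.10 ± 0.06. The tetraspanin gene Cd63 differed by -0.03 ± 0.07. Cd68, a macrophage glycoprotein of the same family as the Lamp proteins, differed by 0.08 ± 0.23. Its arrays overlapped widely, with 10.37 and 9.97 in Dnmt3b-KO and 9.82, 9.90 and 10.53 in controls. Of the proton pump subunits, Atp6v1a, which holds the catalytic site, measured 11.55 and 11.64, against 11.39, 11.39 and 11.28 in controls. It was higher by 0.24 ± 0.06 (limma, adjusted p = 0.148). Atp6v0d1, Atp6v1h and Atp6v0d2 differed by 0.19, 0.10 and 0.08. The factor genes Tfeb and Tfe3 differed by 0.03 ± 0.06 and 0.00 ± 0.06.

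**Figure D2:**
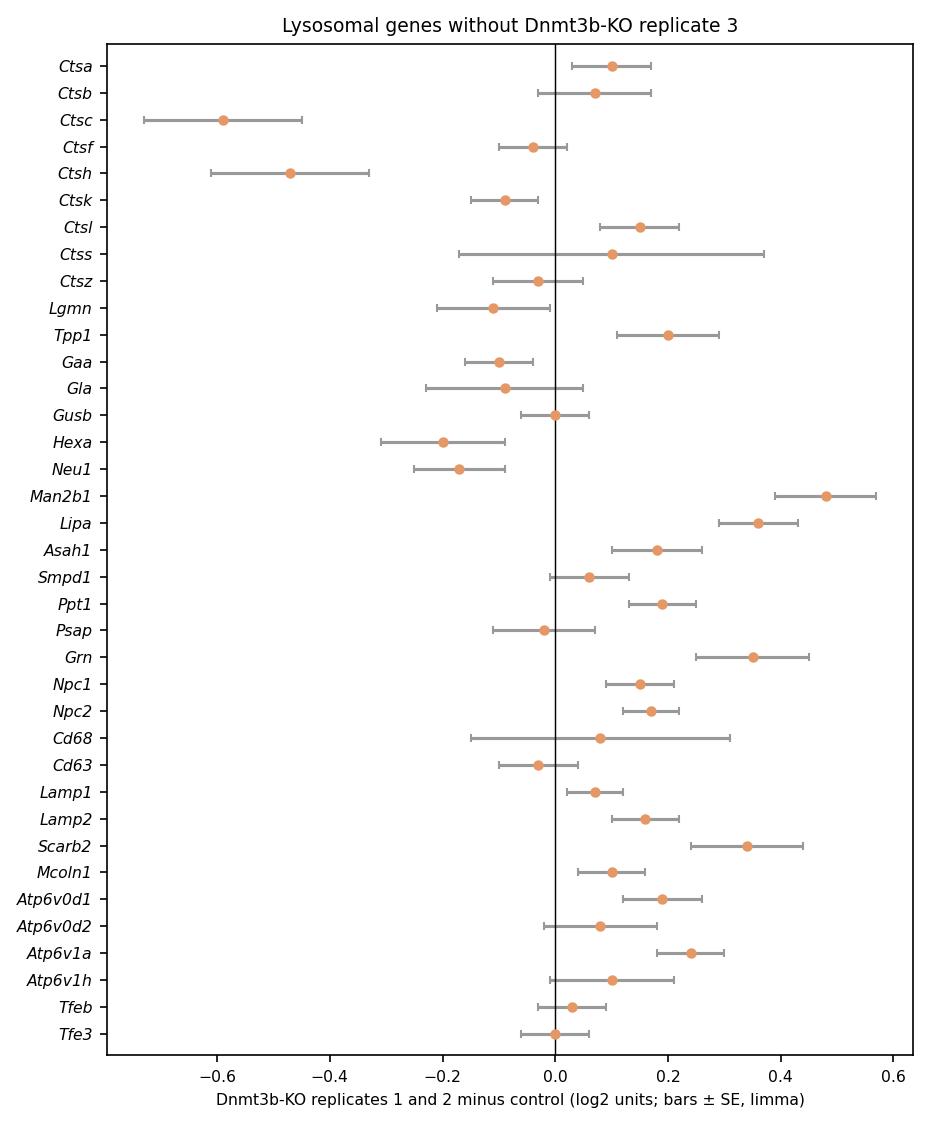
Difference of Dnmt3b-KO replicates 1 and 2 from control (x axis, log2 units) for the 37 lysosomal genes, with bars of 1 SE from the limma fit over 5 arrays. Points run from -0.59 for Ctsc to 0.48 for Man2b1, and 24 lie above 0.

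Other genes of the same organelle were read from lists. Of 77 further lysosomal genes (27 hydrolases, 17 pump subunits and 33 membrane proteins and transporters), 3 rose and 0 fell without Dnmt3b-KO replicate 3 (limma, adjusted p under 0.05), against 0.939% and 0.75% of all genes. The median difference was 0.06. Gm2a encodes the activator that presents GM2 ganglioside to beta-hexosaminidase. It measured 12.70 and 12.68 in Dnmt3b-KO replicates 1 and 2, against 12.12, 12.08 and 12.21 in controls, and rose by 0.55 ± 0.06 (limma, adjusted p = 0.0202). Ids, a sulfatase of heparan and dermatan sulfate breakdown, measured 6.57 and 6.63, against 6.16, 5.92 and 6.14 in controls, and rose by 0.53 ± 0.09 (limma, adjusted p = 0.0486). Mfsd8, a lysosomal membrane transporter, measured 8.95 and 8.87, against 8.51, 8.56 and 8.55 in controls, and rose by 0.37 ± 0.06 (limma, adjusted p = 0.0403). In all of these the Dnmt3b-KO values lay clear of the controls. Of 27 genes for sorting to the lysosome 1 rose, Vps11, a subunit of the tethering complexes HOPS and CORVET (0.35 ± 0.05; limma, adjusted p = 0.0435). Of 20 genes for MiT/TFE factors and nutrient sensing 1 rose, Fnip1, a partner of folliculin (0.46 ± 0.06; limma, adjusted p = 0.0315). None fell in either list, and 0 passed in either direction among 28 autophagy genes, 10 cathepsin inhibitors and 12 primary granule genes. With all 6 arrays none of these 5 genes passed. Leaving out 1 further array also took away the calls of Ids, Mfsd8, Vps11 and Fnip1 whichever array it was (limma, adjusted p from 0.0615 to 0.248), and that of Gm2a except without control replicate 2 (0.0484 to 0.163).

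Markers of other cells on these 5 arrays were as follows. The macrophage list had a mean level of 6.70 and 6.59 in Dnmt3b-KO replicates 1 and 2, against 6.58, 6.59 and 6.67 in controls, and a median difference of 0.01. Of its 30 measured genes 1 rose and 1 fell. Fcgr4, an IgG receptor, rose by 1.07 ± 0.07 (SE; limma, adjusted p = 0.00469), and the call was lost without Dnmt3b-KO replicate 1 (0.0607) or 2 (0.0573). Ly6c2, a surface marker of monocytes, fell by 0.38 ± 0.06 on the log2 scale (limma, adjusted p = 0.0496), a call lost without any further array (0.102 to 0.211). Among 13 osteoclast markers, the integrin subunit gene Itgb3 rose by 0.72 ± 0.08 (limma, adjusted p = 0.0204), and it too was lost without any further array (0.0532 to 0.143). Of 13 mast cell, basophil and eosinophil markers 1 rose and 6 fell, against 0.939% and 0.75% of all genes. Among those that fell, Hdc, Ms4a2 and Gata2 had differences of -1.71 ± 0.25, -0.90 ± 0.11 and -0.48 ± 0.07. Their calls (limma, adjusted p = 0.0346, 0.0289 and 0.0402) were lost without any 1 of the controls (0.0572 to 0.126). Epx, the eosinophil peroxidase gene, Prg2, which encodes an eosinophil granule protein, and Cpa3, a mast cell carboxypeptidase gene, fell, with differences of -2.01 ± 0.07, -3.36 ± 0.19 and -3.12 ± 0.21. These calls held without any 1 further array (limma, adjusted p from 0.00185 to 0.0441). Siglecf, an eosinophil surface receptor gene, rose by 1.01 ± 0.13 (limma, adjusted p = 0.0293), a call lost without any further array (0.0507 to 0.2). Of 13 neutrophil markers 0 rose and 1 fell: Retnlg, within the background range, fell by 0.81 ± 0.08 on the log2 scale (limma, adjusted p = 0.0161). Of 12 leukaemia genes 2 rose, Meis1 by 0.65 ± 0.06 and Cdk6 by 0.70 ± 0.05 (limma, adjusted p = 0.0111 and 0.00747). In the same list 3 fell, with differences of -1.60 ± 0.18 for Mef2c, -1.01 ± 0.15 for Cd34 and -0.88 ± 0.08 for Pbx3 (limma, adjusted p = 0.021, 0.0378 and 0.0136). The calls of Retnlg and of these 5 leukaemia genes were lost without at least 1 further array (limma, adjusted p up to 0.155). No dendritic cell, erythroid, lymphoid, stromal or endothelial marker passed. With all 6 arrays, 0 genes of any of these lists passed. The part of these cells in the lysosomal differences was not tested.

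Dnmt3b-KO replicate 3 had much higher levels of lysosomal proteases and of part of the lipid-handling and membrane genes, while none of the 6 glycosidases was higher by more than 1. It is 1 array, so its values are a description without a test. It exceeded the mean of Dnmt3b-KO replicates 1 and 2 by more than 1 for 16 of the 37 genes, against 4.03% of all genes, and fell short by more than 1 for 1, Man2b1, against 2.94%. It lay above the other 5 arrays for 30 of the 37, against 33.9% of all genes, and below them for 5, against 31.3%. The median difference was 0.74 over the 37 and 0.02 over all genes. Of the 37, 35 are among the 15071 genes above the median expression level. Of those 15071, this array lay above the other 5 for 3934 and below them for 7767. It was past 1 for 979 of them on the higher side and 883 on the lower, with a median difference of -0.15.

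Of the 11 proteases, 9 were higher by more than 1, against 4.03% of all genes, and the protease median was 1.37. Lgmn, the asparagine-specific endopeptidase, measured 13.57 in Dnmt3b-KO replicate 3, against 5.47 and 5.16 in replicates 1 and 2 and 5.41, 5.40 and 5.45 in controls. Ctsl measured 14.20 there, against 7.41 and 7.56 in replicates 1 and 2 and 7.32, 7.38 and 7.29 in controls. Ctss measured 13.99, against 8.73 and 7.92 in replicates 1 and 2 and 8.23 ± 0.30 (SD, n = 3) in controls, none of which was over 8.56. The transcripts of these endopeptidases were thus near or below 9 on 5 arrays and above 13 on 1. Ctsc was higher on this array by 3.55, at 12.32, against 8.87 and 8.66 in replicates 1 and 2, although those lay below the controls of 9.10 to 9.55. Ctsb, an abundant cysteine protease, measured 17.36, against 15.02 and 14.94 in replicates 1 and 2 and 15.01, 14.73 and 14.98 in controls. Ctsa, the carboxypeptidase that shields Neu1 and beta-galactosidase, was higher by 1.37, Ctsf by 1.21, Ctsh by 1.10 and the carboxypeptidase gene Ctsz by 1.02. Tpp1 was higher by 0.67. Ctsk, the collagen-cleaving protease of osteoclasts, differed by -0.03, at 3.85, within the range of background rows.

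The 6 glycosidases had a median of 0.09. On this array 3 of them lay above the other 5 arrays and 2 below, against 33.9% and 31.3% of all genes. Man2b1 measured 13.65 in Dnmt3b-KO replicate 3, against 15.00 and 14.96 in replicates 1 and 2 and 14.60, 14.35 and 14.57 in controls. This array lay below all others and gave a 6-array difference of 0.03 ± 0.38 (SE) where the other 5 gave 0.48. Neu1 measured 8.80, against 9.68 and 9.81 in replicates 1 and 2 and 9.85 to 10.02 in controls, also below all others. Hexa, Gla and Gusb, higher by 0.48, 0.26 and 0.08, were the 3 above all other arrays. Gaa differed by 0.10 and lay within them.

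Among the lipid-handling genes, 4 of 8 were higher by more than 1, against 4.03% of all genes, and the median of these 8 was 1.03. Psap measured 15.09 in Dnmt3b-KO replicate 3, against 13.07 and 12.82 in replicates 1 and 2 and 12.91, 12.96 and 13.03 in controls. Npc1, the membrane component of the cholesterol exporter, measured 10.42, against 8.70 and 8.72 in replicates 1 and 2 and 8.56, 8.51 and 8.61 in controls, whereas its partner Npc2 differed by 0.07. Grn and Lipa, which were already on the higher side in replicates 1 and 2, were higher again by 1.20 and 1.16. Asah1 and Ppt1 differed by 0.89 and 0.22, and Smpd1 by -0.85, at 7.28, below all other arrays.

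Cd68 measured 14.60 in Dnmt3b-KO replicate 3, against 10.37 and 9.97 in replicates 1 and 2 and 9.82, 9.90 and 10.53 in controls. It and Scarb2, higher by 1.37, were the membrane protein genes past 1. Lamp1, Mcoln1 and Lamp2 were higher by 0.70, 0.56 and 0.46, and Cd63 differed by -0.25, below all other arrays. Of the pump subunits none passed 1: Atp6v0d2, Atp6v1a and Atp6v1h differed by 0.79, 0.74 and 0.44, and Atp6v0d1 by -0.40. Tfe3 measured 6.93, against 5.44 and 5.49 in replicates 1 and 2 and 5.50, 5.39 and 5.52 in controls, all of these within the range of background rows. Tfeb differed by 0.30. Members with an E-box in a promoter window had a median difference of 0.72 (4 of 10 past 1), and those without had 0.48 (9 of 21 past 1). For TCACGTG the order was the other way, with 0.63 (2 of 8 past 1) for members that hold it and 0.67 (11 of 23) for those that do not. For TCACGTGA the medians were 0.56 (1 of 5 past 1) with it and 0.68 (12 of 26) without. No order by promoter motif is read from these values. Lgmn, in 1 of its 2 windows, and Ctsl are among those with an E-box and Ctss is not.

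**Figure D3:**
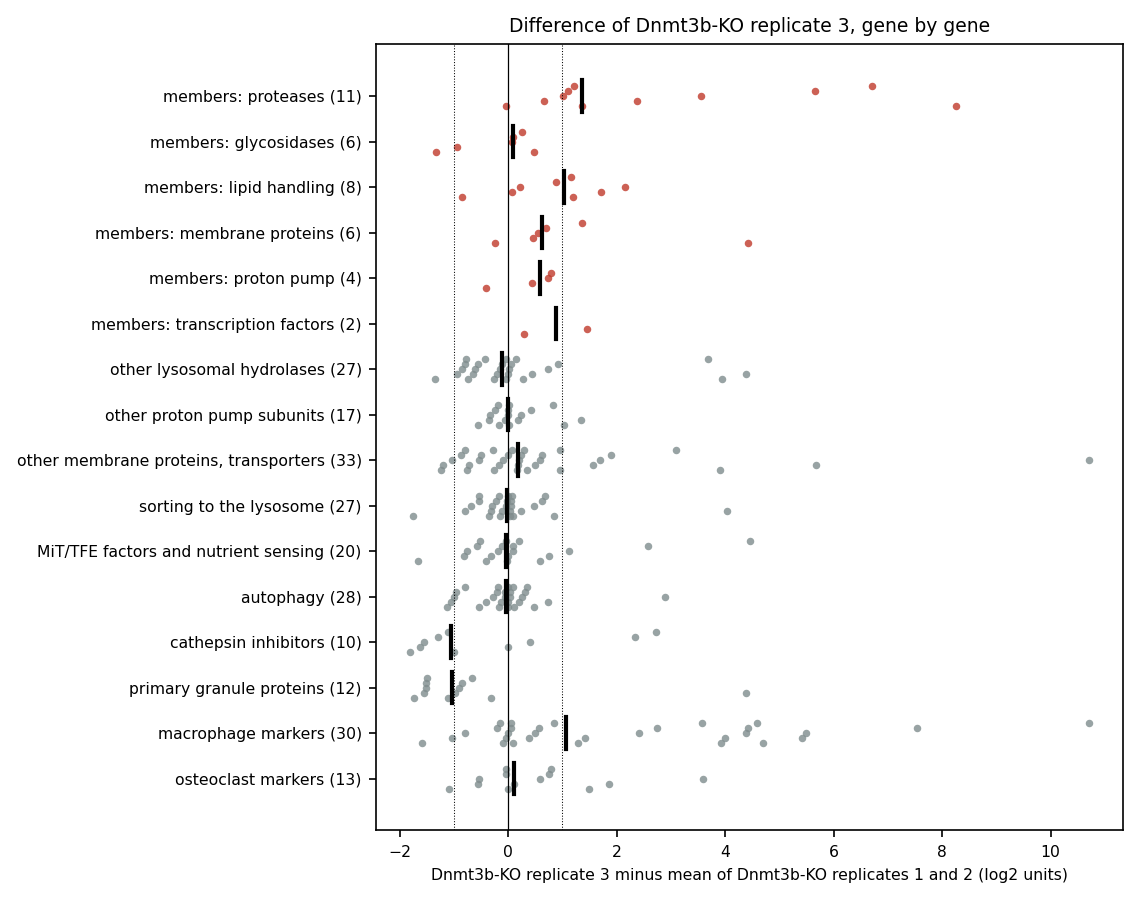
Dnmt3b-KO replicate 3 minus the mean of Dnmt3b-KO replicates 1 and 2 (x axis, log2 units), gene by gene, for the 37 lysosomal genes by role (red) and for related gene lists and marker lists (grey), with the number of genes in brackets; black bars are medians and dotted lines mark a difference of 1 either way. The medians are 1.37 for the proteases and 1.07 for the macrophage markers, and between -0.11 and 0.19 for the 3 lists of other lysosomal genes.

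In the wider set of lysosomal genes the median difference on Dnmt3b-KO replicate 3 was 0.00, with some single genes far higher. Of the 77 further lysosomal genes, a difference past 1 was found for 12 on the higher side, against 4.03% of all genes, and for 4 on the lower side, against 2.94%. This array lay above the other 5 for 32 of them and below for 29, against 33.9% and 31.3% of all genes. Among the 15071 genes above the median expression level, it lay above for 3934 and below for 7767, with a median difference of -0.15. Among the hydrolases, Lyz2, a lysozyme of myeloid cells, measured 17.97, against 13.72 and 13.47 in replicates 1 and 2 and 12.99, 12.74 and 13.89 in controls. Scpep1, a serine carboxypeptidase, measured 12.31, against 8.36 and 8.39 in replicates 1 and 2 and 8.12, 8.13 and 8.38 in controls. Both lay far outside the spread of the other arrays, while the list's median was -0.11. The 1 hydrolase gene lower by more than 1 was Cpq, at 7.45, against 8.83 and 8.77 in replicates 1 and 2. Its controls were 8.50, 8.55 and 8.61. Among the membrane proteins, Gpnmb, a glycoprotein of macrophages, measured 16.16, against 5.55 and 5.35 in replicates 1 and 2 and 5.30, 5.30 and 5.51 in controls. Gpr137b was higher by 5.67, the metal transporter gene Slc11a1 by 3.91 and Hgsnat, an acetyltransferase of heparan sulfate breakdown, by 3.10. The pump subunit genes Atp6v1c1 and Atp6v0a1 were higher by 1.34 and 1.04, and the median of the pump list was 0.00.

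Genes that control the lysosome differed one by one on this array. Mitf, a relative of Tfeb, measured 8.93, against 6.32 and 6.36 in replicates 1 and 2 and 6.24, 6.33 and 6.30 in controls. Tfec, another relative, measured 12.41, against 14.03 and 14.10 in replicates 1 and 2 and 14.05, 14.17 and 13.99 in controls. Mitf was therefore above and Tfec below all other arrays. Tfe3 and Tfeb, described above, also lay above all other arrays, Tfeb within the range of background rows. Fnip2 was higher by 4.45, the Rag GTPase gene Rragc by 1.13 and the autophagy receptor gene Sqstm1 by 2.89. Of the 20 genes for MiT/TFE factors and nutrient sensing, 3 were higher by more than 1 and 1 lower. Of the 28 autophagy genes, 1 was higher, Sqstm1, and 3 lower, against 4.03% and 2.94% of all genes. The medians of the MiT/TFE and autophagy lists were both -0.03. Of the 10 cathepsin inhibitors, more than 1 separated 2 on the higher and 6 on the lower side: Serpinb6a and the cystatin gene Cstb were higher by 2.73 and 2.34, and Stfa1, a stefin, differed by -1.80. Of the 12 primary granule genes, 1 was higher (Lyz2) and 6 lower, with a median of -1.04.

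Macrophage markers moved on the same array as the proteases. Of the 30 measured, 15 were higher by more than 1 and 2 lower, against 4.03% and 2.94% of all genes. The mean level of the list was 8.82 in Dnmt3b-KO replicate 3, against 6.70 and 6.59 in replicates 1 and 2. Controls had 6.58, 6.59 and 6.67. The mean level of the 37 lysosomal genes was 11.54, against 10.29 and 10.22 in replicates 1 and 2 and 10.18, 10.18 and 10.25 in controls. Csf1r, the receptor for the macrophage growth factor, measured 12.97, against 8.64 and 8.12 in replicates 1 and 2 and 7.90, 7.96 and 8.27 in controls. Adgre1, which encodes an adhesion receptor of macrophages, measured 14.44, against 11.65 and 11.74 in replicates 1 and 2 and 11.59, 11.56 and 11.71 in controls. These receptors were thus present on all arrays and highest on this one. The mannose receptor gene Mrc1 measured 12.05, against 4.57 and 4.43 in replicates 1 and 2. In all, 8 markers left the background range on this array alone: C1qb, C1qc, Fcgr1, Gpnmb, Maf, Mrc1, Msr1 and Siglec1. Another 9 stayed within it on all 6: C1qa, Cd163, Cd5l, Itgax, Marco, Mertk, Spic, Timd4 and Vsig4. Cd68 is both a lysosomal gene and a macrophage marker, and Gpnmb and Lyz2 are on a lysosomal list as well. The part of such cells in the lysosomal values of this array was not tested.

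Osteoclasts also make cathepsins and proton pumps. Of 13 osteoclast markers, 3 were higher by more than 1 on Dnmt3b-KO replicate 3 and 1 lower, against 4.03% and 2.94% of all genes. The mean level of the list was 5.45 on this array, against 4.95 and 4.88 in replicates 1 and 2. Controls had 4.92, 4.91 and 4.89. The 3 higher markers were Tnfrsf11a, the RANK receptor gene, by 3.60, Dcstamp, a membrane protein of osteoclast fusion, by 1.86, and Mmp9, a gelatinase that neutrophils make too, by 1.49. Dcstamp measured 5.61, against 3.76 and 3.74 in replicates 1 and 2 and 3.82, 3.76 and 3.97 in controls. It is 1 of 7 markers within the background range on all 6 arrays, with Atp6v0d2, Calcr, Ctsk, Ocstamp, Oscar and Tm4sf19. Ctsk, the calcitonin receptor gene Calcr and Oscar lay at 3.85, 3.60 and 3.55 on Dnmt3b-KO replicate 3. Acp5, the acid phosphatase of osteoclasts, measured 6.05, against 6.54 and 6.66 in replicates 1 and 2 and 6.54, 6.53 and 6.46 in controls. The part of such cells was not tested either. Dendritic cell markers had 2 of 11 higher by more than 1, neutrophil markers 1 of 13 higher and 5 lower, lymphoid markers 0 of 11 higher and 1 lower, erythroid markers 0 of 6 either way, and stromal and endothelial markers 0 of 12 higher and 2 lower. Mast cell, basophil and eosinophil markers had 0 of 13 higher and 6 lower, beside the same 4.03% and 2.94% of all genes. Of 12 leukaemia genes 2 were higher and 5 lower, with Kit at 9.71, against 11.40 and 11.42 in replicates 1 and 2, and Itgam at 15.41, against 13.95 and 13.88.

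**Figure D4:**
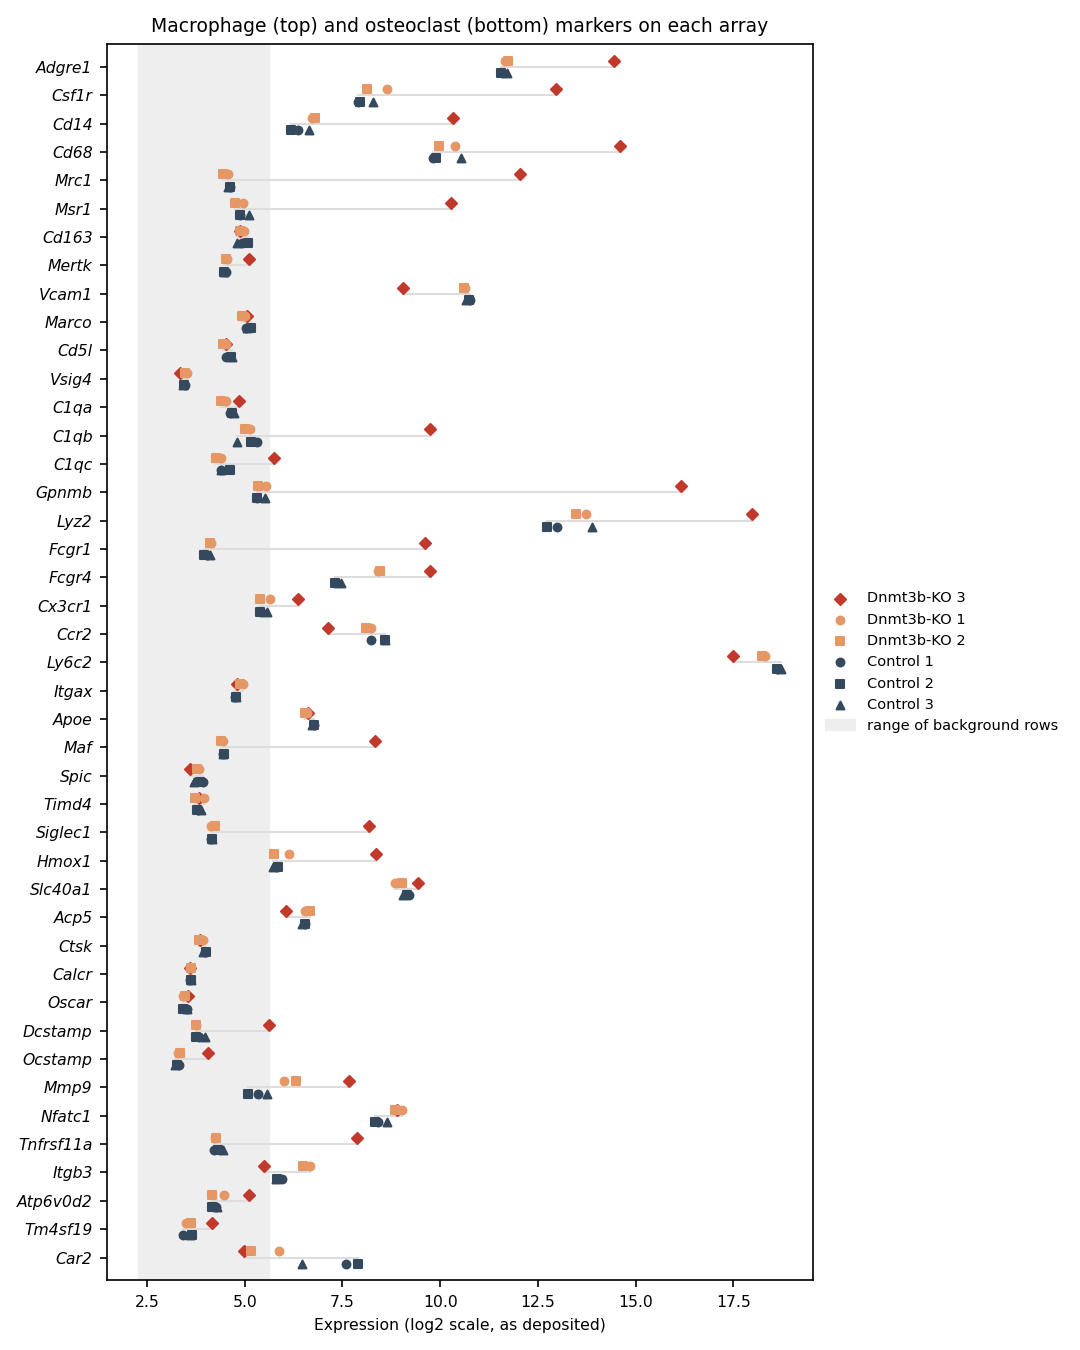
Level of macrophage markers (upper rows, Adgre1 to Slc40a1) and osteoclast markers (lower rows, Acp5 to Car2) on each of the 6 arrays (log2 scale, as deposited), with Dnmt3b-KO in red and orange above control in dark blue and the background control rows as a grey band. Mrc1, Msr1, Fcgr1 and Gpnmb are in the band on 5 arrays and far above it on Dnmt3b-KO replicate 3, whereas Ctsk, Calcr and Oscar stay within it.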

How the data were processed

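The authors deposited 1 table of log2 expression values for 6 arrays. Per the submitters' processing notes, RMA normalized them (version not given in the sources used here). Of its 72688 rows, 6732 were array controls. Older platform annotation gave 30604 rows exactly 1 symbol and 2146 several, and 827 symbols were brought up to date through gene identifiers. Keeping the row with the highest mean left 30142 genes, with 29821 distinct sets of values and no filter on low values. Array medians ran from 4.75 to 4.85. The values give no read depth, and the number of arrays limits the precision.

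Differences of Dnmt3b-KO minus control were fitted with limma 3.58.1 (R 4.3.3; lmFit, then eBayes) over 6 arrays and without Dnmt3b-KO replicate 3. P-values were adjusted by Benjamini-Hochberg across all 30142 genes, and 0.05 was the threshold. That array was also set beside the mean of Dnmt3b-KO replicates 1 and 2, with a difference of 1 as the mark and no test. The fits were checked on simulated data. The genes, the lists, the comparison without that array and the rule for named genes were chosen with earlier results of these data known. The text names every member, Dnmt3b, markers of the labelled and of other cells, of the list genes that passed up to 3 per list and direction, and, in each list, up to 4 genes per direction with the greatest difference on Dnmt3b-KO replicate 3 (some are given by count). Alternatives were array weights, trend with robust fitting, quantile normalization, centring, a filter on dim genes, the mean of a gene's rows, the replicate number as a block, no empirical Bayes, another threshold and leaving out arrays. For replicate 3 alone, the scaling, row and control-mean alternatives were chosen after seeing the data. RefSeq promoter windows were searched in Python 3.11.15.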

Additional observations from a re-analysis of the deposited data

Results flagged for a closer look

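Ctsd, a major aspartic protease of lysosomes, and Glb1, the beta-galactosidase, are listed genes on array rows that carry a second symbol, so their signal cannot be assigned to 1 gene, and they entered no comparison. The row shared by Ctsd and Ifitm10 measured 7.01, 6.95 and 8.16 in Dnmt3b-KO replicates 1, 2 and 3, against 6.95, 6.87 and 6.99 in controls. Dnmt3b-KO replicates 1 and 3 lay above all controls. The row shared by Tmppe and Glb1 measured 9.41, 9.45 and 10.0 in Dnmt3b-KO replicates 1, 2 and 3, against 9.62, 9.70 and 9.67 in controls. Replicate 3 lay above all controls there, and replicates 1 and 2 below them. No test was made on these rows.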

How the results depend on the processing

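Limits: 3 arrays a group, and 2 without Dnmt3b-KO replicate 3, limit every call, and genes within the range of background rows have inexact differences. Over 6 arrays, 0 genes passed (limma; 1920 at an unadjusted p under 0.05), 103 passed with array weights, and 0 to 509 with 1 array left out. Without Dnmt3b-KO replicate 3, 509 genes passed, 996 among genes above the median level, where fewer genes were tested, 96 with the replicate number as a block, 1148 at an adjusted p under 0.1, 0 without empirical Bayes, 0 with all 6 arrays, and 13 to 262 with 1 further array left out. Of the 37 lysosomal genes, 0 passed there, 1 after quantile normalization (Man2b1), 2 among genes above the median level and 2 at an adjusted p under 0.1 (Man2b1 and Lipa). Over the alternatives run for each of these genes, those without empirical Bayes and with all 6 arrays included, the adjusted p ran from 0.0283 to 0.991 for Man2b1 and from 0.0364 to 0.809 for Lipa. The labels do not say whether same-numbered samples were paired. Their deviations correlated at 0.13, 0.03 and 0.11, and those of the other control and Dnmt3b-KO pairs at -0.12 to 0.09. Whether they were paired was not tested. The replicate block treats same-numbered arrays as paired. Without Dnmt3b-KO replicate 3 it leaves control replicate 3 alone in its block, so the differences rest on replicates 1 and 2 of each group. With the replicate block, the calls of Gm2a, Ids, Mfsd8, Vps11, Fnip1, Ly6c2, Itgb3, Retnlg and Hdc were lost. So were those of Ms4a2, Gata2, Meis1, Cdk6, Mef2c, Cd34 and Pbx3. Those of Fcgr4, Epx, Prg2, Cpa3 and Siglecf stayed (limma, adjusted p from 0.0243 to 0.0422). Ids, Vps11 and Ly6c2 were also lost with a trend and robust fit (0.0584, 0.0558 and 0.0528). On Dnmt3b-KO replicate 3, 2 lysosomal genes were lower by more than 1 after centring, against 1 as deposited, and 15 to 17 were higher by more than 1 under all scalings tried.

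Differences over 6 arrays that changed sign when 1 array was left out ranged as follows: Atp6v0d1 -0.02 to 0.19, Ctsc -0.59 to 1.24, Ctsf -0.04 to 0.59, Ctsh -0.47 to 0.15, Ctsz -0.03 to 0.52, Gla -0.09 to 0.14, Hexa -0.20 to 0.10, Lgmn -0.11 to 4.10, Man2b1 -0.20 to 0.48, Psap -0.02 to 1.11, Smpd1 -0.39 to 0.06 and Tfe3 0 to 0.74. Array weights gave -0.49 for Ctsc and 0.02 for Smpd1, and quantile normalization 0.03 for Gla and 0 for Hexa. Without Dnmt3b-KO replicate 3, leaving out 1 further array gave Atp6v0d2 -0.09 to 0.24, Cd63 -0.07 to 0.01, Cd68 -0.12 to 0.31, Ctsb -0.02 to 0.13, Ctsf -0.09 to 0.01, Ctss -0.31 to 0.51, Ctsz -0.11 to 0.04, Gla -0.28 to 0.10, Gusb -0.02 to 0.02, Lgmn -0.26 to 0.05, Psap -0.15 to 0.11 and Tfe3 -0.04 to 0.02. Quantile normalization gave 0.04 for Cd63, -0.02 for Gusb and 0.01 for Tfe3, centring 0.01 for Tfe3, and the replicate block -0.02 for Gusb, 0.01 for Psap and 0.02 for Tfe3. With all 6 arrays the differences turned to 0.60 for Ctsc, 0.36 for Ctsf, 0.31 for Ctsz, 2.65 for Lgmn, 0.69 for Psap, -0.23 for Smpd1 and 0.49 for Tfe3. Apart from the added array, and the array left out, the cause was not tested.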
